A study of Homo sapiens with 16 samples.

Results

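Collagens, laminins, integrins and fibronectin form the scaffold outside cells and the receptors that hold cells to it. They were followed here in HAP1, a near-haploid human cell line. Members were taken by symbol pattern, and 77 of the 33121 entries of the count table matched: 44 collagen chains, 12 laminin chains, 20 integrin chains and FN1. The pattern asks for a digit after the A or B of an integrin symbol, so ITGAV, ITGAE and 4 leukocyte chains are not members and are given with the other matrix genes. The 16 libraries formed 4 groups of 4. The SLC30A10 knockout (SLC30A10_delta) lacks a gene for a manganese exporter and had a control set of its own (SLC30A10+/+). The second knockout lacks another gene and also had its own control set. No treatment is given in the labels, and all groups grew in the same medium. One cell line identifier is shared by the control sets, each knockout has another, and the number of clones is not given. Within each experiment, the deletion and other differences between the cell lines therefore cannot be told apart. Nothing says that the 4 libraries of a group came from separate cultures, so p-values measure only the spread between these libraries.

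A collagen molecule is a triple helix of collagen chains, wound from the same or from different chains. Fibrillar collagens build cables, collagen IV builds the sheet of the basement membrane, and the FACIT collagens, such as collagen IX, decorate fibrils. A laminin is a heterotrimer of an alpha, a beta and a gamma chain, and laminins join collagen IV in the basement membrane. Integrins are alpha-beta dimers in the plasma membrane that bind these proteins, or fibronectin, and couple them to the actin cytoskeleton.

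Library totals ranged from 16058856 to 16648151 counts. SLC30A10 itself had 6 to 9 counts per control library and 3 to 11 in the SLC30A10 knockout, so the deletion is not visible at the RNA level and the group is named by its label. HAP1 derives from a leukaemia line. Of 10 blood markers, 0 passed the expression filter and their summed level stayed between 0.427 and 0.850 CPM in every library, with MPO and HBG1 at 0. Of 7 fibroblast markers, 3 passed, and DCN and LUM, which define that type, were at or near 0. PDGFRA made up most of that list, and the list's sum was 195 to 213 CPM in the SLC30A10 control against 114 to 127 CPM in the SLC30A10 knockout, and 214 to 248 CPM against 126 to 161 CPM in the second experiment. PDGFRA was called lower in both knockouts (-0.81 and -0.71), while THY1, another marker on that list, was called higher in both (1.23 and 2.33). Of 6 endothelial markers 0 passed, while 4 of 7 epithelial markers passed, with 57.0 to 65.1 CPM summed in the SLC30A10 control and 64.1 to 73.0 CPM in its knockout, against 54.3 to 59.5 CPM and 43.7 to 47.6 CPM in the second experiment. In the SLC30A10 knockout KRT8 (0.36) and KRT18 (0.26) were called higher and EPCAM (-2.18) and ESRP1 (-0.29) lower, and in the second KRT8 (-1.35) and KRT18 (-0.22) were called lower. Of 5 muscle and pericyte markers 2 passed. ACTA2 was called higher in the SLC30A10 knockout (0.88) and not called in the second (0.35), and RGS5 was called in neither. The part of these marker differences in the results below was not tested. Library 3 of the SLC30A10 control had the lowest value of its group for 33 of 47 tested members (70.2%), against 33.9% of all tested genes. Without it the SLC30A10 knockout comparison called 30 members, as with it, but not the same ones. COL1A1 and COL4A3 were gained and ITGB4 and LAMB2 were lost, giving 10 higher and 20 lower.

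Which members these cells use was described first. Of the 77 members, 47 passed the expression filter. Of the other 30, 17 had at most 3 counts in every library, where 3 counts correspond to 0.180 to 0.187 CPM, and no library held more than 12 counts of any of them. Per kb of exon, the highest member over all 16 libraries was COL2A1, the collagen best known from cartilage, at 89.3 CPM per kb. ITGB1, the beta chain shared by most matrix-binding integrins, followed at 39.9 CPM per kb, COL6A1 at 37.2, LAMC1 at 26 and COL26A1 at 17 CPM per kb. Several trimers lacked a partner chain at the RNA level. COL1A1, the major chain of collagen I, was at 3.62 CPM per kb, while its partner COL1A2 had 0 to 4 counts. COL6A1 and COL6A2 were both high, while COL6A3, the chain that completes the classical collagen VI trimer, had at most 2 counts. COL11A2 is listed with 6 further numbered copies, and the sum over all of them reached at most 9 counts in a library.

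**Figure D1:**
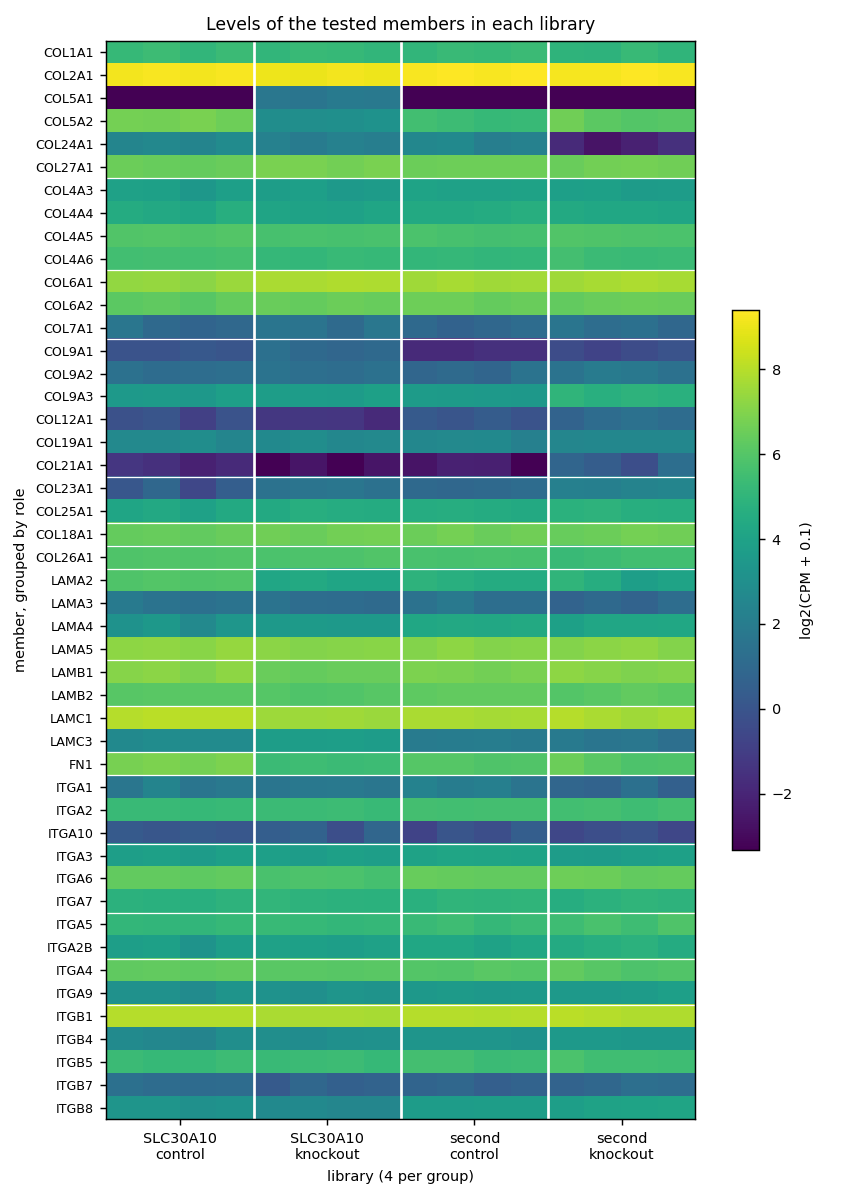
Level of the 47 tested members (rows, ordered by role) in each of the 16 libraries (columns, 4 per group), as log2(CPM + 0.1). COL5A1 stands at the floor in all groups except the SLC30A10 knockout, COL24A1 is dark in the second knockout only, and COL2A1 is the brightest row throughout.

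The SLC30A10 knockout was compared with its own control to ask which members differ between these groups. Fibronectin, the laminin chains LAMA2, LAMB1 and LAMC1, the fibrillar collagen COL5A2 and the laminin receptor chain ITGA6 were lower in the knockout, and COL5A1, COL23A1, COL9A1 and LAMC3 were higher. Of the 47 tested members, 30 were called, 11 higher and 19 lower (63.8%), at an adjusted p under 0.05 in edgeR's quasi-likelihood test over all genes. Of all 15569 tested genes, 41.4% were called. The median log2 fold change was -0.06 over the members and -0.00 over all genes. A 2-fold change was reached by 8 members, 3 higher and 5 lower, where 4.51% of all genes reached it. Among the 5 are COL12A1, with 3 to 5 counts per knockout library, and COL21A1, with 0 or 1 and not called by DESeq2. COL5A1, among the 3, passed the expression filter only through the knockout, so it could be called only as a rise. The libraries of knockout and control were fully separated for 25 members, 8 higher and 17 lower, where 38.3% of all genes did not overlap. With both control sets pooled as the reference, 21 members were called: 10 of the 30 were not, and COL7A1 was added.

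In the second knockout, compared with its own control for the corresponding question, collagens of several kinds rose, COL24A1 was nearly absent, 2 of 8 tested laminin chains were called and FN1 was not. Of the 47 tested members, 18 were called, 13 higher and 5 lower (38.3%), where 13.7% of all genes were called, 6.67% higher and 7.03% lower. The median log2 fold change was 0.05 over the members. A 2-fold change was reached by 7 members, 5 higher and 2 lower, where 2.30% of all genes reached it, and all but ITGA1 of these 7 are collagens. COL21A1, among the 5, passed the expression filter only through this knockout, so in this comparison it could be called only as a rise. Libraries did not overlap for 19 members, 12 higher and 7 lower, against 16.3% of all genes. With pooled controls 26 members were called: 4 of the 18 were not and 12 were added, among them FN1, LAMA2, LAMA4 and LAMC3.

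**Figure D2:**
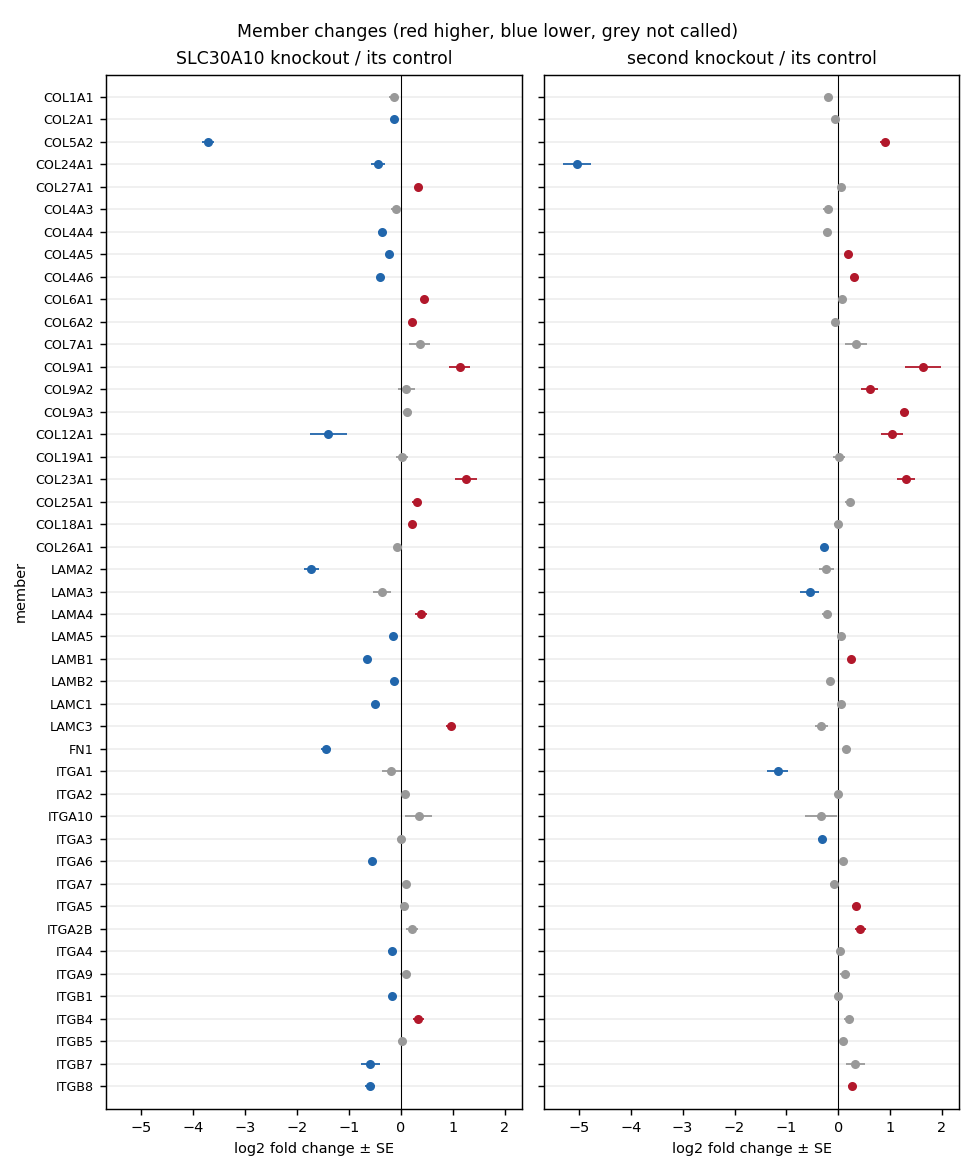
Log2 fold change ± SE of 45 tested members in each knockout against its own control (red called higher, blue called lower, grey not called). COL5A1 and COL21A1 are left out because a group lies at or under 3 counts. LAMB1, COL4A5, COL4A6, COL5A2, COL12A1 and ITGB8 lie on opposite sides of 0 in the 2 panels.

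Among the fibrillar collagens, both chains of collagen V differed between the SLC30A10 knockout and its control. Collagen V joins the major fibrils and sets their thickness. COL5A1 (chr9:134641803-134844843, GRCh38.p14) had 52, 48, 58 and 55 counts in the 4 libraries of the SLC30A10 knockout and 0 counts in each of the other 12 libraries. Its level in that knockout was 3.23, 2.98, 3.56 and 3.42 CPM, at least 18.1-fold higher than a floor of 3 counts per library in the control (edgeR, adjusted p = 1.60e-10). COL5A1 passed the expression filter only through that knockout, so it could be called only as a rise. The edgeR test of the difference between the knockouts gives no usable value where whole groups are at 0 (adjusted p = 1), and the DESeq2 Wald test gave an adjusted p of 6.50e-05 for it. COL5A2 (chr2:189031898-189441111), the partner chain, moved the other way. COL5A2 lay at 105, 102, 112 and 96.3 CPM in the SLC30A10 control and at 7.4, 7.58, 7.97 and 8.78 CPM in the knockout. Its libraries in the second experiment lay at 45.9, 42.1, 37.1 and 38.3 CPM in the control and 99.5, 73, 63.2 and 67.9 CPM in the knockout. All SLC30A10 knockout libraries were thus below every other library, and the groups of each experiment did not overlap. The log2 fold change was -3.71 ± 0.12 (SE) in the SLC30A10 knockout against 0.89 ± 0.09 in the second knockout, with edgeR adjusted p of 4.15e-19 and 5.31e-08. The control sets also differed in this gene, by 1.35 ± 0.09 on the log2 scale, and with both sets pooled the changes were -3.04 and 0.22. COL3A1, the neighbour of COL5A2 on chromosome 2 and a fibrillar chain of skin and vessels, was not tested. It had 9, 6, 4 and 6 counts in the SLC30A10 control and 0 in all 4 libraries of its knockout. In the second experiment no library held more than 2 counts of it. The 20 tested genes nearest to COL5A2 had a median log2 fold change of -0.13 in the SLC30A10 knockout.

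COL24A1 (chr1:85729233-86156984), a fibrillar chain of developing bone and eye, was the member that fell most in the second knockout. It lay at 5.81, 6.36, 4.22 and 4.68 CPM in the second control and at 0.187, 0.0613, 0.121 and 0.242 CPM in the second knockout, where the libraries held 3, 1, 2 and 4 counts. In the SLC30A10 experiment it lay at 5.48, 6.01, 5.18 and 6.83 CPM in the control and 4.66, 3.85, 4.72 and 4.17 CPM in the knockout. The second knockout therefore stood apart from the other 3 groups, which lay within 3.85 to 6.83 CPM. The log2 fold change was -5.04 ± 0.27 in the second knockout and -0.43 ± 0.14 in the SLC30A10 knockout, and the difference of the effects was 4.61 ± 0.34 (edgeR, adjusted p = 2.63e-11). The smaller fall was not called without library 4 of the SLC30A10 control (-0.36, edgeR adjusted p 0.0522). Its 20 nearest tested genes had a median log2 fold change of -0.00 in the second knockout, with 2 called higher and 1 lower, and of -0.21 in the SLC30A10 knockout, with 11 called lower.

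The other tested fibrillar chains had smaller fold changes. COL27A1, a fibrillar chain of cartilage, rose in the SLC30A10 knockout, from 92.4, 87.1, 84.1 and 88.8 CPM to 112, 116, 102 and 114 CPM, a log2 fold change of 0.33 ± 0.05, and had 0.05 ± 0.05 in the second knockout, not called. COL2A1 lay between 509 and 669 CPM in all 16 libraries and fell by 0.14 ± 0.04 on the log2 scale in the SLC30A10 knockout. COL1A1 had log2 fold changes of -0.14 ± 0.08 and -0.20 ± 0.08 and was not called. It was called lower in the former without library 3 of the control (-0.20), and in the latter without library 1 of the control (-0.25), without library 3 of the knockout (-0.27) and with pooled controls (-0.21). The promoters of both chains that were near 0 in some groups and expressed in others are shown with the bases 5′ of the RefSeq start, every CG dinucleotide in capitals. They come from chr9:134641553-134641802 (plus strand) and chr1:86156773-86157022 (minus strand) of GRCh38.p14.
COL5A1: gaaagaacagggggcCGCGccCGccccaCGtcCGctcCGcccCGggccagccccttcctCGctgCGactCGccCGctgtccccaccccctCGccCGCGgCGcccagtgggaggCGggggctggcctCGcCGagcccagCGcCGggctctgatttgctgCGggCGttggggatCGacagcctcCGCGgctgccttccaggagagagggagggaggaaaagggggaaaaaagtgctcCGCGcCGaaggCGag
COL24A1: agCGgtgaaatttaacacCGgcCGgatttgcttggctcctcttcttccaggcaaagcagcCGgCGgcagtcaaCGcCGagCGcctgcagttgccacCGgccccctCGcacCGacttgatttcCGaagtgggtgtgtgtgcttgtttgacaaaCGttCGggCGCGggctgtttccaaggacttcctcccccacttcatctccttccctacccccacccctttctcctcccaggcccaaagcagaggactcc
The COL5A1 window holds 29 CG dinucleotides and the motif GGGCGG on one of its strands, and the COL24A1 window holds 16 CG and no GGGCGG. The median over 35116 promoters of 250 bases is 11 CG, with quartiles of 3 and 23, and 42.6% of them hold GGGCGG on either strand. RefSeq windows were matched for 56 of the 77 members. The median was 16 CG over the 37 matched members that were tested and 11 CG over the 19 that were not, as a description of these windows. COL5A2 had no window in the table.

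**Figure D3:**
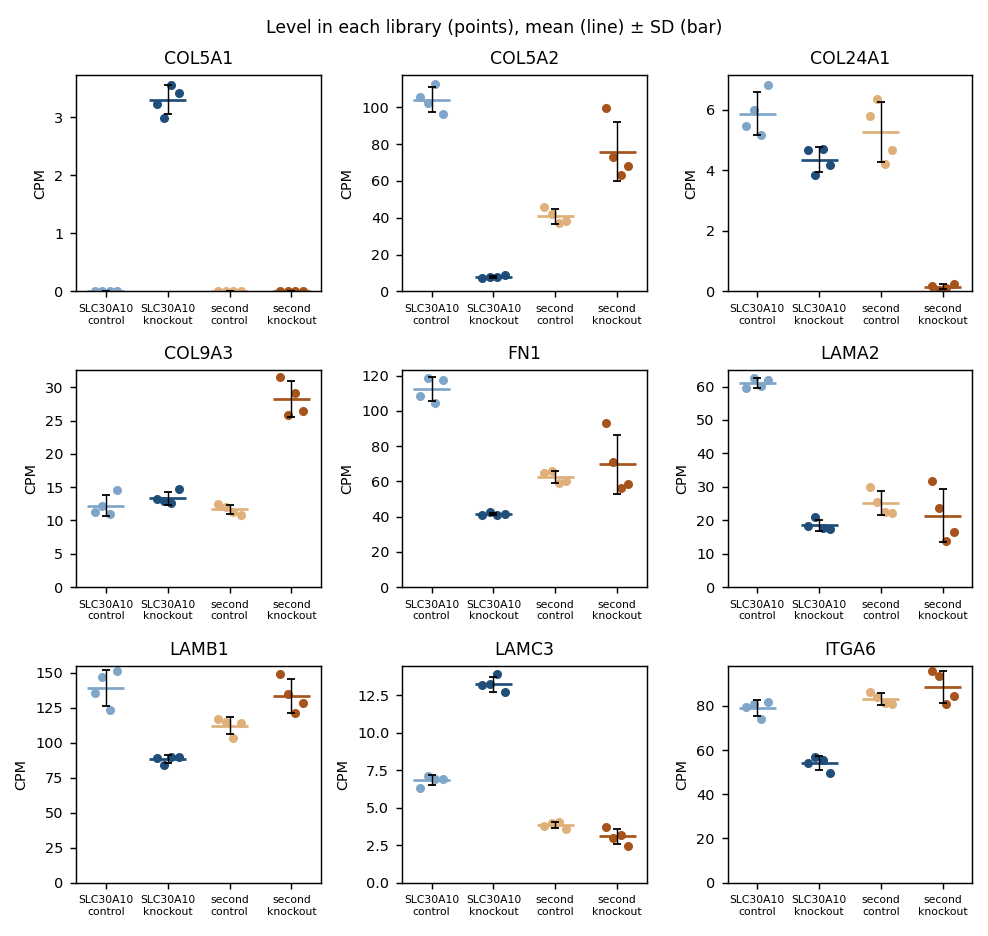
CPM of 9 members in each library (points), with the group mean (line) and SD (bar). COL5A2, FN1, LAMA2, LAMB1 and ITGA6 are lowest on average in the SLC30A10 knockout, COL5A1 and LAMC3 are highest there, COL24A1 is near 0 and COL9A3 is highest in the second knockout.

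Collagen IV genes lie in head-to-head pairs that share the stretch between their starts, and HAP1 used these pairs very unequally. The pair COL4A1 and COL4A2, the chains of nearly all basement membranes, was near 0: COL4A1 had 0 or 1 counts and COL4A2 0 to 5 counts in each of the 16 libraries. COL4A3 and COL4A4, known from the kidney filter and mutated in Alport syndrome, were at 1.54 and 1.97 CPM per kb. COL4A5 and COL4A6 on the X chromosome were higher, at 4.71 and 4.29 CPM per kb. The RefSeq starts of the pairs lie 127 bases apart for COL4A1 and COL4A2 and 380 for COL4A5 and COL4A6. The RefSeq span of COL4A4 ends at chr2:227164488 and that of COL4A3 starts at chr2:227164624. The stretches are shown up to the partner's start or for at most 250 bases, read toward the gene named, with CG in capitals. For COL4A3 the window of 250 bases reaches into the span of COL4A4, so it is not the shared stretch alone. Their positions are chr13:110307158-110307283 (minus strand), chr2:227164374-227164623 (plus strand) and chrX:108439588-108439837 (plus strand) of GRCh38.p14.
COL4A1: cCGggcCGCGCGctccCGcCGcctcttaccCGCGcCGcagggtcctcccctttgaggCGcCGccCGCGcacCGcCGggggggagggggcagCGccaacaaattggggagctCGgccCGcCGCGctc
COL4A3: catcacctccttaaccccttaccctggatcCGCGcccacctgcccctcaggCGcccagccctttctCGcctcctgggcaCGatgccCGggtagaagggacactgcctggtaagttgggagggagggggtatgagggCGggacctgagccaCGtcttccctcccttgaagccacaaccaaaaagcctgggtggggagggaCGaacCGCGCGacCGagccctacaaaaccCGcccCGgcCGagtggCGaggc
COL4A5: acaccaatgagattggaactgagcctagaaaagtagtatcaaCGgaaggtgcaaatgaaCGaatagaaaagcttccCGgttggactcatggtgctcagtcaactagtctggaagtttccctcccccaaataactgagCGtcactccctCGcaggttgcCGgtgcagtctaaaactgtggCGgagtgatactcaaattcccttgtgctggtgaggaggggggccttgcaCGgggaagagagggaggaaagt
The stretch of COL4A1 and COL4A2 holds 20 CG in 126 bases. The COL4A3 window, part of it within COL4A4, holds 17 CG in 250 bases. The stretch of COL4A5, the most abundant of the 6 chains, holds 8 CG in 250 bases. GGGCGG is present on either strand in the COL4A1 stretch and the COL4A3 window and not in the stretch of COL4A5. The motif TATAAA, which 10.7% of all promoter windows hold on either strand, is in none of the 5 sequences shown.

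COL4A5 (chrX:108439838-108697545) lay at 61.1, 63.4, 59.9 and 63.3 CPM in the SLC30A10 control and 51.4, 53.9, 51.9 and 53.9 CPM in its knockout. In the second experiment it lay at 54.7, 51, 47.5 and 49.9 CPM in the control and 61.9, 59.1, 56.7 and 55.2 CPM in the knockout. COL4A6 (chrX:108155614-108439458) lay at 46.3, 47.8, 46.2 and 49.3 CPM and 35.5, 34, 37.7 and 36 CPM in the first pair of groups and at 33.9, 34.7, 32.6 and 34.2 CPM and 48.3, 40.8, 39 and 40.2 CPM in the second pair. Both genes were lower in every SLC30A10 knockout library than in its control and higher in every second knockout library than in its control. The log2 fold changes of COL4A6 were -0.41 ± 0.06 and 0.31 ± 0.06, those of COL4A5 -0.23 ± 0.05 and 0.20 ± 0.05, and the difference of the effects was called for both (edgeR, adjusted p = 1.93e-07 and 2.81e-05). The 20 tested genes nearest to COL4A6, COL4A5 among them, had a median of 0.34 in the SLC30A10 knockout. Of these, 11 were called higher and 2 lower, COL4A5 among the latter, so the pair went against most of its neighbours there. The control sets differed by 0.29 ± 0.05 and 0.49 ± 0.06, and with pooled controls COL4A5 was called in neither knockout and COL4A6 not in the second (0.07). COL4A4 fell by 0.36 ± 0.09 on the log2 scale in the SLC30A10 knockout (edgeR, adjusted p = 0.00125), while COL4A3 was not called in either knockout, and was called in the SLC30A10 knockout without library 3 of its control (-0.21).

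**Figure D4:**
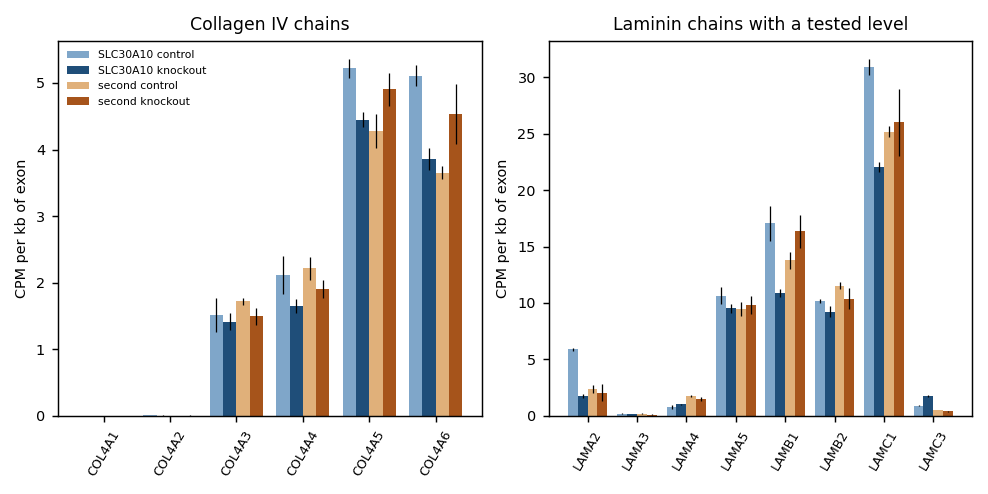
Mean CPM per kb of exon ± SD (bars, 4 libraries each) of the 6 collagen IV chains and of the 8 tested laminin chains in the 4 groups. COL4A1 and COL4A2 are at the baseline in every group, and LAMC1 and LAMB1 are lowest in the SLC30A10 knockout.

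Both expressed chains of collagen VI, which forms beaded filaments next to basement membranes, were called higher in the SLC30A10 knockout, and COL6A1 was so with pooled controls as well. COL6A1 lay at 163, 167, 146 and 176 CPM in the control and 216, 217, 231 and 228 CPM in that knockout, a log2 fold change of 0.45 ± 0.05 (edgeR, adjusted p = 8.83e-08). COL6A2 beside it on chromosome 21 rose by 0.21 ± 0.06, a call lost with pooled controls (0.08). In the second knockout the values were 0.08 ± 0.05 and -0.06 ± 0.06, neither called, though COL6A1 was called with pooled controls (0.22), and the difference of the effects was called for both. The 19 tested genes nearest to COL6A1, COL6A2 among them, had a median of -0.14 in the SLC30A10 knockout. COL18A1, the basement membrane collagen that releases endostatin, rose by 0.22 ± 0.06 there (edgeR, adjusted p = 0.00574) but not with pooled controls (0.13). COL26A1, whose assembly is less well known, fell in the second knockout, from 53.8, 52.3, 53.8 and 52.3 CPM to 39.6, 42.6, 46.1 and 46.5 CPM, by 0.28 ± 0.05 on the log2 scale. COL7A1, the anchoring fibril collagen, had 0.36 ± 0.20 in the SLC30A10 knockout and was not called, but was called with pooled controls (0.46) and without library 1 of the control (0.60).

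Among the FACIT collagens, 5 of 6 tested members were called higher in the second knockout and 0 lower. Of all tested genes, 6.67% were called higher in that comparison. Only 6 of the 10 FACIT chains were tested. COL21A1, among the 5, passed the expression filter only through the second knockout, so here it could be called only as a rise. The share of 5 of 6 is raised by this and is not evidence of a rise of the class. The 3 chains of collagen IX, a cartilage collagen bound to collagen II fibrils, were among the 5. COL9A3 (chr20:62816213-62841159) lay at 12.5, 12, 11.3 and 10.8 CPM in the second control and 31.5, 25.8, 29.2 and 26.4 CPM in the second knockout. In the SLC30A10 experiment it lay at 11.3, 12.2, 10.9 and 14.5 CPM in the control and 13.2, 12.9, 12.6 and 14.8 CPM in the knockout. Every second knockout library was above all other libraries. Its log2 fold changes were 1.28 ± 0.09 in the second and 0.13 ± 0.09 in the SLC30A10 knockout, and the difference was called (edgeR, adjusted p = 6.50e-08). COL9A1 had 0.853, 0.85, 1.04 and 0.914 CPM in the SLC30A10 control and 2.49, 1.93, 1.72 and 1.93 CPM in its knockout. It had 0.184, 0.182, 0.241 and 0.243 CPM in the second control and 0.686, 0.491, 0.666 and 0.848 CPM in the second knockout. It was thus called higher in both knockouts, by 1.13 ± 0.20 and 1.63 ± 0.34, and the control sets differed by 2.07 ± 0.32. The second control libraries held only 3, 3, 4 and 4 counts of COL9A1, so the size of the rise in the second knockout is uncertain. With pooled controls the rise in the second knockout was not called. COL9A2 rose by 0.61 ± 0.17 in the second knockout, a call lost when library 1 or 3 of its control or library 2 of the knockout was left out. In the SLC30A10 knockout it had 0.11 ± 0.17, not called.

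COL12A1, a FACIT chain of tendon and other dense tissue, was at 0.792, 0.911, 0.427 and 0.854 CPM in the SLC30A10 control and 0.311, 0.311, 0.307 and 0.187 CPM in its knockout. In the second experiment it was at 1.1, 0.909, 1.21 and 0.851 CPM in the control and 1.56, 2.15, 2.54 and 2.12 CPM in the knockout. It fell by 1.40 ± 0.35 in the former and rose by 1.04 ± 0.21 in the latter, with a difference of -2.43 ± 0.41 on the log2 scale (edgeR, adjusted p = 3.89e-05). The SLC30A10 knockout libraries held only 5, 5, 5 and 3 counts of COL12A1, so the size of the fall is uncertain. COL21A1, a FACIT chain first described in vessel walls, had 1, 2, 2 and 0 counts in the second control and 27, 20, 12 and 38 counts in the second knockout, at least 8.15-fold higher than a floor of 3 counts per library. In the SLC30A10 experiment it had 5, 4, 2 and 3 counts in the control and 0, 1, 0 and 1 in the knockout, called lower by edgeR (adjusted p = 0.0308) but not by DESeq2 (adjusted p 0.0505), with pooled controls or without libraries 1 or 2 of the control or 1 or 3 of the knockout. COL19A1 was not called in either knockout.

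Among collagens that span the cell membrane, COL23A1 rose in both knockouts. It lay at 0.975, 1.82, 0.549 and 1.28 CPM in the SLC30A10 control and 2.67, 2.86, 3.07 and 2.55 CPM in its knockout. It lay at 1.9, 1.82, 1.93 and 2.19 CPM in the second control and 4.61, 4.42, 4.97 and 5.39 CPM in the second knockout. No knockout library overlapped its control, and the log2 fold changes were 1.26 ± 0.21 and 1.30 ± 0.17 (edgeR, adjusted p = 2.32e-05 and 1.98e-06). The difference of the effects was -0.04 ± 0.30 and was not called, which does not show that they are equal. COL25A1, a membrane collagen known from brain and motor nerves, rose by 0.31 ± 0.08 in the SLC30A10 knockout, a call lost with pooled controls (0.16), and had 0.22 ± 0.08 in the second knockout, not called, but called with pooled controls (0.37) and without library 4 of that knockout (0.27).

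In the SLC30A10 knockout 5 of 8 tested laminin chains fell and 2 rose, where 20.2% of all tested genes fell and 21.2% rose. The members that fell included the alpha chain of muscle laminin, LAMA2, and both chains that most laminins share, LAMB1 and LAMC1. LAMA2 (chr6:128883138-129516566) lay at 59.5, 62.5, 60.1 and 62 CPM in the SLC30A10 control and 18.2, 20.8, 17.5 and 17.4 CPM in its knockout. In the second experiment LAMA2 lay at 29.9, 25.6, 22.5 and 22.1 CPM in the control and 31.6, 23.8, 13.7 and 16.3 CPM in the knockout. The SLC30A10 control stood above the other 12 libraries. The second knockout overlapped its own control and the SLC30A10 knockout, which did not overlap each other. The log2 fold change was -1.72 ± 0.14 in the SLC30A10 knockout (edgeR, adjusted p = 1.33e-10), -1.08 with both control sets pooled, and the SLC30A10 control exceeded the second control by 1.29 ± 0.13. In the second knockout it was -0.23 ± 0.15 and was not called, while without library 1 of that knockout it was -0.47 and was called (edgeR, adjusted p = 0.00802), as it was with pooled controls (-0.87, edgeR adjusted p = 6.32e-06).

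LAMB1 (chr7:107923799-108003161) lay at 135, 147, 123 and 151 CPM in the SLC30A10 control and 89.2, 84, 89.9 and 90.0 CPM in its knockout. It lay at 117, 114, 103 and 114 CPM in the second control and 149, 135, 121 and 128 CPM in the second knockout. LAMC1 (chr1:183023420-183145592) lay at 252, 266, 261 and 262 CPM in the SLC30A10 control, 186, 186, 188 and 179.8 CPM in its knockout, 215, 215, 206 and 211 CPM in the second control and 252, 218, 191 and 213 CPM in the second knockout. For both genes all SLC30A10 knockout libraries were below every other library. Their log2 fold changes were -0.65 ± 0.06 and -0.49 ± 0.05 there. The second knockout had 0.25 ± 0.06 and 0.05 ± 0.05, where only LAMB1 was called, and the difference of the effects was called for both (edgeR, adjusted p = 3.91e-09 and 2.04e-06). With pooled controls the rise of LAMB1 in the second knockout was not called (0.09). LAMA5, the broadly expressed alpha chain, and LAMB2 fell by 0.16 ± 0.05 and 0.14 ± 0.05 in the SLC30A10 knockout. LAMA5 was not called with pooled controls (-0.08) or without library 4 of the control or library 2 of the knockout, and LAMB2 not without libraries 2, 3 or 4 of the control or 2 or 3 of the knockout. In the second knockout LAMB2 was called lower without library 3 of it (-0.21) but not with all 4.

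LAMC3, a gamma chain of nerve and retina, and LAMA4, an alpha chain of vessels, were the 2 laminin chains that rose. LAMC3 (chr9:131009174-131094473) lay at 6.33, 7.1, 6.89 and 6.95 CPM in the SLC30A10 control and 13.2, 13.2, 13.9 and 12.7 CPM in its knockout. It was lower in the second experiment, at 3.79, 4.0, 4.04 and 3.58 CPM in the control and 3.68, 3.0, 3.21 and 2.42 CPM in the knockout. Its log2 fold change was 0.96 ± 0.09 in the SLC30A10 knockout against -0.33 ± 0.13 in the second, not called but called without library 1 of the knockout (-0.41) and with pooled controls (-0.74), and the effects differed by 1.28 ± 0.16 (edgeR, adjusted p = 3.48e-07). LAMA4 lay at 8.71, 10.7, 6.28 and 10.1 CPM in the SLC30A10 control, 11.5, 12.2, 11.8 and 11.5 CPM in its knockout, 19.1, 20.5, 19.6 and 21.3 CPM in the second control and 14.8, 18, 18 and 18.8 CPM in the second knockout. Its rise of 0.39 ± 0.11 in the SLC30A10 knockout turned to -0.19 with both control sets pooled, since the second control was higher than both groups of the SLC30A10 experiment. LAMA3, an alpha chain of skin, was called lower in the second knockout at -0.55 ± 0.18, but not by DESeq2 or without any of 5 single libraries.

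On the scale of CPM per kb, the mix of laminin chains is given as a description, with no test. LAMA2 made up 33.7% ± 1.44 (SD) of all alpha chain RNA in the SLC30A10 control and 14.3% ± 1.43 in its knockout, against 17.4% ± 2.39 and 15.2% ± 5.46 in the second experiment. LAMA5 made up 60.8% ± 0.978 and 76.3% ± 1.78 in the former. LAMC3 made up 2.82% ± 0.0742 of gamma chain RNA in the SLC30A10 control and 7.34% ± 0.147 in its knockout, and LAMC1 held nearly all of the rest. The 12 laminin chains summed to 701 ± 28.7 CPM (SD, n = 4) for the SLC30A10 control and 519 ± 9.31 CPM in its knockout, and to 591 ± 18 and 607 ± 31.1 CPM in the second control and the second knockout.

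Fibronectin, the soluble and fibrillar glycoprotein that integrins assemble on the cell surface, was lower in the SLC30A10 knockout than in all other groups. FN1 (chr2:215360865-215436068) lay at 108, 118, 105 and 118 CPM in the SLC30A10 control and 40.9, 42.6, 41.1 and 41.5 CPM in its knockout. In the second experiment it lay at 64.5, 65.7, 58.9 and 60.4 CPM in the control and 93, 70.7, 56.4 and 58.5 CPM in the knockout. The SLC30A10 knockout libraries were below the other 12, and library 1 of the second knockout was above the other 7 libraries of its experiment. The log2 fold change was -1.44 ± 0.10 in the SLC30A10 knockout (edgeR, adjusted p = 2.60e-12) and 0.16 ± 0.09 in the second, not called. Without library 1 of the second knockout the latter value was -0.01. The effects differed by -1.59 ± 0.13 (edgeR, adjusted p = 4.84e-10). The control sets differed by 0.85 ± 0.09, and with both pooled the changes were -1.01 and -0.27, the latter called (edgeR, adjusted p = 0.0125).

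Among the receptors, ITGA6, ITGB7 and ITGB8 were lower in the SLC30A10 knockout and ITGA1 in the second. Of 15 tested integrin chains, 6 were called in the SLC30A10 knockout, 1 higher and 5 lower. That is 40.0%, near the 41.4% of all tested genes. In the second knockout 5 were called, 3 higher and 2 lower, which is 33.3% against 13.7% of all tested genes. Of the integrin chains called in a knockout, only ITGA1 in the second reached a 2-fold change. Among the laminin-binding alpha chains, ITGA6 lay at 79.5, 81, 73.9 and 81.6 CPM in the SLC30A10 control and 53.9, 56.9, 55.6 and 49.8 CPM in its knockout. It lay at 86.4, 83.9, 81.2 and 80.7 CPM in the second control and 95.8, 93.8, 80.7 and 84.6 CPM in the second knockout. The SLC30A10 knockout was below all other libraries, with a log2 fold change of -0.55 ± 0.05 (edgeR, adjusted p = 6.97e-09), and -0.58 with pooled controls. The effect in the second knockout was 0.09 ± 0.05, called with pooled controls (0.13), and the difference was called (edgeR, adjusted p = 2.28e-07). ITGA3, another laminin receptor chain, fell by 0.32 ± 0.08 in the second knockout, and ITGA7, known from muscle, was not called.

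The collagen receptor chain ITGA1 lay at 4.89, 4.0, 4.34 and 2.86 CPM in the second control and 1.75, 1.53, 2.48 and 1.39 CPM in the second knockout, without overlap. It fell by 1.16 ± 0.20 there (edgeR, adjusted p = 1.50e-04), with -0.18 ± 0.19 in the SLC30A10 knockout, not called. ITGA2, the other main collagen receptor chain and the more abundant at 5.46 CPM per kb, was called in neither, and with pooled controls it was called in the second (0.15). Of the chains that bind the RGD motif of fibronectin, ITGA5 rose by 0.34 ± 0.08 and ITGA2B, the platelet chain, by 0.43 ± 0.10 in the second knockout, and neither was called in the other. ITGA4 fell by 0.18 ± 0.07 in the SLC30A10 knockout, a call lost with pooled controls (-0.04) and without any of 6 single libraries. ITGB1 lay between 213 and 265 CPM in all libraries and fell by 0.17 ± 0.04 on the log2 scale in the SLC30A10 knockout (edgeR, adjusted p = 5.25e-04). ITGB8, a beta chain that activates TGF-beta, lay at 9.68, 9.71, 8.29 and 8.78 CPM and 6.53, 6.46, 5.64 and 5.54 CPM in the SLC30A10 control and knockout, and at 12.9, 13.1, 13.4 and 13.2 CPM and 13.9, 15.8, 16.4 and 17.3 CPM in the second pair. It fell by 0.59 ± 0.10 and rose by 0.27 ± 0.08, and the effects differed by -0.86 ± 0.12 (edgeR, adjusted p = 5.43e-06). The rise was not called by DESeq2 (adjusted p 0.0505) or without library 1 of its control or libraries 3 or 4 of the knockout. ITGB7 fell by 0.59 ± 0.18 and ITGB4, the hemidesmosome chain, rose by 0.33 ± 0.11 in the SLC30A10 knockout. Both calls were lost with pooled controls, that of ITGB7 also without library 1 of the knockout and that of ITGB4 without libraries 2 or 3 of the control or library 4 of the knockout.

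How far the knockouts share these changes was examined next. Both comparisons called 10 members, 33.3% of those called in the SLC30A10 knockout and 55.6% of those called in the second. Over all tested genes 1217 were called in both, which is 18.9% and 57.1%. Of the 10, COL23A1 and COL9A1 were higher in both, COL24A1 was lower in both, and the other 7 went in opposite directions: COL5A2, COL12A1, COL21A1, COL4A5, COL4A6, LAMB1 and ITGB8 were each lower in the SLC30A10 knockout and higher in the second. Of the 1217 genes, 591 had opposite signs, a share of 48.6%. COL21A1, among the 7, passed the expression filter only through the second knockout. With pooled controls COL4A5 was called in neither knockout, COL4A6, LAMB1 and COL9A1 not in the second, and COL21A1 not in the SLC30A10 knockout. Among the 7, COL5A2, COL4A5, COL4A6 and LAMB1 were called higher in the SLC30A10 control than in the second control. ITGB8 was called lower there, and COL12A1 and COL21A1 were not called between the control sets. The difference of the effects was called for 25 of 47 members, 10 with the higher value in the SLC30A10 knockout and 15 with the lower, where 31.3% of all genes were called. A difference of 2-fold was reached by 8 members, where 5.51% of all genes reached it.

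The control sets were compared to see how far these genes vary without a deletion. COL5A2, LAMA2 and FN1 were higher in the SLC30A10 control, and LAMA4, COL23A1, ITGB4 and ITGB8 were higher in the second control, the call of COL23A1 being lost without library 3 of the SLC30A10 control (-0.52, edgeR adjusted p 0.0537). Of the 47 members, 29 were called, 13 higher and 16 lower in the SLC30A10 control, where 39.3% of all genes were called. Libraries did not overlap for 25 members, against 36.3% of all genes. A 2-fold difference was reached by 4 members, where 1.40% of all genes reached it. LAMA4 differed by -1.17 ± 0.10 on the log2 scale (edgeR, adjusted p = 9.95e-09). ITGA9 (-0.45 ± 0.10), ITGA2 (-0.32 ± 0.05) and ITGA2B (-0.51 ± 0.11) were also lower in the SLC30A10 control, and LAMC3 (0.82 ± 0.11) and ITGA4 (0.28 ± 0.07) were higher. This comparison and that of the SLC30A10 knockout share the SLC30A10 control libraries. Each knockout differs from the other control set by experiment as well as by genotype, and these cannot be told apart.

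Genes that make, cut or hold the members were given from 6 lists. Of 150 tested genes in them, 82 were called in the SLC30A10 knockout, 29 higher and 53 lower (54.7%), where 41.4% of all tested genes were called, 21.2% higher and 20.2% lower. In the second 34 were called, 12 higher and 22 lower (22.7%), where 13.7% of all tested genes were called, 6.67% higher and 7.03% lower. The same shares are the background of each list that follows. Their median log2 fold changes were -0.06 and -0.01. With pooled controls the second knockout called 69. Of 34 tested enzymes and chaperones that modify and export collagen, 5 were higher and 15 lower in the SLC30A10 knockout (58.8% called, against 41.4%). PLOD2, which hydroxylates lysines for crosslinks, fell from 111 ± 8.28 to 64.8 ± 5.16 CPM (SD, n = 4), by 0.77 ± 0.07 on the log2 scale, and SEC24D, a coat protein for collagen export, by 0.65 ± 0.06, where its 20 neighbours had a median of -0.43. BMP1, the protease that trims procollagens, rose by 0.76 ± 0.07. Its 20 neighbours on chromosome 8 had a median of 1.11, with 18 called higher. In the second knockout 2 of these 34 genes were higher and 3 lower (14.7%), near the 13.7% of all genes. COLGALT2, a collagen galactosyltransferase, rose by 0.38 ± 0.07, TLL1, a relative of BMP1, fell by 1.25 ± 0.14 and PCOLCE, which enhances procollagen trimming, fell by 0.44 ± 0.08. TLL1 was also called lower in the SLC30A10 knockout (-0.81 ± 0.15). For PCOLCE the SLC30A10 control differed from the second control by -0.41 ± 0.08, also called.

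Among 20 tested basement membrane partners, 4 were higher and 8 lower in the SLC30A10 knockout (60%, against 41.4%), and 2 higher and 4 lower in the second (30.0%, against 13.7%). SPARC, a collagen-binding protein, fell from 159 ± 7.11 to 71.8 ± 3.02 CPM (SD, n = 4), or -1.15 ± 0.07 on the log2 scale, and was also 0.97 ± 0.07 higher in its control than in the second control. HSPG2, the heparan sulfate proteoglycan perlecan, fell by 0.63 ± 0.07, and SDC2, a cell surface proteoglycan, by 0.51 ± 0.05. FREM2, a protein of the skin basement membrane, fell from 66.5 ± 2.2 to 2.12 ± 0.251 CPM (SD, n = 4) in the second knockout, by 4.96 ± 0.10 on the log2 scale (edgeR, adjusted p = 5.42e-24). Its effect in the SLC30A10 knockout was 0.15 ± 0.06, and its 20 neighbours had a median of 0.03 in the second. PXDN, the peroxidase that crosslinks collagen IV, fell by 1.31 ± 0.18 in the second knockout, and GPC4, a glypican, by 0.20 ± 0.05.

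Of 28 tested other matrix glycoproteins and proteoglycans, 4 were higher and 15 lower in the SLC30A10 knockout (67.9%, against 41.4%), and 3 higher and 4 lower in the second (25%, against 13.7%). FBN1, the microfibril protein fibrillin, fell from 43.7 ± 1.8 to 13.4 ± 1.77 CPM (SD, n = 4) in the former and rose from 37.9 ± 2.87 to 57.1 ± 4.12 CPM in the latter. Its log2 fold changes were -1.70 ± 0.08 and 0.59 ± 0.07. THBS1, a thrombospondin, fell by 2.70 ± 0.17 in the SLC30A10 knockout and had -0.41 ± 0.18 in the second, not called. EFEMP1, a fibulin, had 93 to 116 counts in the SLC30A10 control and 1 to 2 in its knockout, and 19 to 26 counts in the second control and 0 in every library of the second knockout. MFAP2, a microfibril protein, had 31 to 50 and 1 to 7 counts in the first pair of groups and 24 to 32 in the second control, with 1 in each library of the second knockout.

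Of 23 tested matrix proteases and inhibitors, 8 were higher and 2 lower in the SLC30A10 knockout (43.5%, near the 41.4% of all genes), while 0 were higher and 5 lower in the other knockout (21.7%, against 13.7%). CTSB, the lysosomal protease cathepsin B, rose by 1.05 ± 0.04 and TIMP1, an inhibitor of matrix metalloproteinases, by 0.85 ± 0.06 in the SLC30A10 knockout. The neighbours of CTSB on chromosome 8 had a median of 0.90 and those of TIMP1 on the X chromosome of 0.42. ADAM15, a membrane metalloproteinase, rose by 0.39 ± 0.04. ADAMTS9, which cleaves proteoglycans, fell by 1.85 ± 0.14 in the second knockout, MMP24, a membrane metalloproteinase, by 0.82 ± 0.15 and TIMP2 by 0.26 ± 0.06. In the adhesion machinery that links integrins to actin, 8 of 43 genes were higher and 12 lower in the SLC30A10 knockout (46.5%, near the 41.4% of all genes), and 4 higher and 6 lower in the second (23.3%, against 13.7%). TLN2, a talin, had -0.82 ± 0.06 and 0.28 ± 0.06 in the respective knockouts, and CD9, a tetraspanin partner of integrins, had 0.38 ± 0.05 and -0.28 ± 0.05, all called. FERMT1, a kindlin that activates integrins, fell by 0.41 ± 0.05 in the SLC30A10 knockout, and TNS3, a tensin, fell by 0.26 ± 0.04 and 0.22 ± 0.04 in the respective knockouts. Of the integrin chains outside the symbol pattern, 2 of 6 were tested. ITGAV, the partner of ITGB5 and ITGB8, rose by 0.22 ± 0.06 in the second knockout, and ITGAE, known from T cells in epithelia, fell by 0.24 ± 0.09 in the SLC30A10 knockout.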

How the data were processed

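RNA was sequenced as poly-A selected, paired-end libraries in 16 samples. The authors deposited a table of raw counts with 33121 entries, one column per library. Per the submitters' processing notes, HISAT2, featureCounts and DESeq2 were used with hg38 or GRCh38. Versions, annotation and strand setting are not given in the sources used here. Where a gene overlaps an antisense entry, as COL18A1 does, it is therefore not known whether reads of the other strand were counted for it. The deposited normalized table was not used.

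Members were the 77 entries that match the symbol patterns. Members and lists were chosen with earlier results of these data known. edgeR 4.0.16 in R 4.3.3 was fitted to all 16 libraries with a mean per group, TMM scaling and its expression filter (minimum count 10, minimum total 15). Quasi-likelihood F tests were adjusted by the Benjamini-Hochberg method over 15569 tested genes. CPM are counts per 1000000 of the scaled library size. SE were derived from the F statistic. Exon length was the union of GENCODE exons per gene, and promoters and gene order came from RefSeq GRCh38.p14. The fit was run on simulated data with the same dispersion for every gene and with changes larger than many of those called here. That run does not test the calls of small changes.

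Named members were called, had at least 1 CPM on average and were among the 10 largest rises or falls of a comparison, together with FN1 and the highest member of each role. From each list of other genes up to 3 per knockout were named. Members outside the rule that are named above were chosen after their values were seen. Protein sequences were not used here, so the planned count of protein repeats was not made. The gene deleted in the second knockout is not reported here.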

Additional observations from a re-analysis of the deposited data

Results flagged for a closer look

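Single libraries stood apart in 5 of 149 groups of 4 values from the named members, by Dixon's test, which divides the distance from an extreme library to its neighbour by the whole spread of the 4 (95% critical value). Chance gives about 1 in 20, or 7.45 here. They were library 4 of the SLC30A10 knockout for COL12A1 (ratio 0.966), library 3 of the SLC30A10 control for ITGA2B (0.832), library 3 of the second control for ITGA2B (0.976), library 4 of the second control for ITGB4 (0.895) and library 2 of the SLC30A10 knockout for LAMB1 (0.877). Each was the lowest of its group.

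The knockouts were compared as the change in the SLC30A10 knockout minus that in the second knockout. This difference passed the test for the 20 members named for it (edgeR quasi-likelihood test, adjusted p under 0.05). On the log2 scale it was positive for COL24A1 (4.61), LAMC3 (1.28), ITGA1 (0.98), LAMA4 (0.60), COL6A1 (0.37), ITGA3 (0.32), COL27A1 (0.28), COL6A2 (0.27), COL18A1 (0.23) and COL26A1 (0.21). It was negative for COL5A2 (-4.61), COL12A1 (-2.43), FN1 (-1.59), LAMA2 (-1.49), COL9A3 (-1.15), ITGB7 (-0.92), LAMB1 (-0.90), ITGB8 (-0.86), COL4A6 (-0.72) and ITGA6 (-0.64). Of the 20, 3 lost this call at the same threshold when a library was left out or the tool, the scaling or the filter was changed. COL18A1 lost it when any of 10 single libraries was left out, by DESeq2, with library totals and with a mean count of at least 50. ITGA3 lost it by DESeq2 (adjusted p 0.0503) and when library 3 of the SLC30A10 knockout, library 2 of the second control or library 1 or 2 of the second knockout was left out. COL26A1 lost it with library totals (adjusted p 0.0514) and when library 4 of the SLC30A10 knockout, library 3 of the second control or library 1 or 2 of the second knockout was left out.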

How the results depend on the processing

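The counts of called members were 30 in the SLC30A10 knockout, 18 in the second knockout, 25 for the difference of the effects and 29 between the control sets. A required 2-fold change lowered them to 8, 7, 8 and 4, and the counts of other matrix and adhesion genes to 12 and 7. Those other genes numbered 34 in the second knockout, 69 with both control sets pooled and 21 at an adjusted p under 0.01. The remaining settings (median-of-ratios size factors, library totals, DESeq2 1.42.0, no filter, a mean count of at least 50, only the libraries compared) kept each count within 1.5 times, as did each single library left out: 26 to 30, 16 to 19, 21 to 26 and 24 to 28 members, and 72 to 78 and 27 to 39 other genes. The alternatives for the other genes were added after seeing the data.

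Replicate numbers recur in the titles of all groups. For each library the deviation of every tested gene from its group mean was taken, on the log2 CPM scale. Between same-numbered libraries these deviations correlated at -0.0699 to 0.0036 in the SLC30A10 experiment and -0.0216 to 0.116 in the second. Between the control sets they correlated at -0.103 to 0.11. Libraries 1, 2 and 3 of the SLC30A10 control correlated best with the same number in the second control. Library 1 of the second knockout did so with its own control. With correlations this low, same-numbered libraries were not treated as pairs. With the replicate number as a block the counts were 30, 20, 26 and 29 members, and 84 and 34 other genes, and the block ended no call of a named member.

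Of 1727 values of named members under all alternatives, in the comparisons that called them, 1534 kept direction and call, 192 kept the direction only and 1 changed sign: LAMA4 in the SLC30A10 knockout, -0.19 with both control sets pooled. The causes were not tested. At this depth, members at or under 3 counts could not be compared.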
